A study of Rattus norvegicus with 4 samples.

Results

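The genes that carry a cell from G1 through DNA replication to mitosis were examined in rat cortical neuron cultures after knockdown of Cmtr1, the nuclear methyltransferase that modifies the first transcribed nucleotide of capped mRNA. The members were 36 named genes, taken out of 34235 gene names on the array: 12 of G1 and the restriction point, 11 of DNA replication and 13 of G2 and mitosis. For each gene the probe with the highest mean processed signal was used. All 36 were well above background on all 4 arrays, and so all 36 were among the 30359 gene names tested. By a test that took the slide into account, 7 of the 13 mitotic members, Tk1 and Ccnd1 were lower in the cultures with the Cmtr1 hairpin. Ccnd2 and Cdkn1b were higher. The same test called 3.05% of all gene names lower and 3.7% higher. Under other scalings of the arrays it called between 1 and 5 of the mitotic members lower. Without the slide in the model, or with it but without a trend of the variance on intensity, no member passed.

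The cultures were primary cortical neurons from Sprague Dawley rats, prepared from E18.5 embryos of both sexes. They were infected on day 2 in vitro with a lentivirus that expresses either a control short hairpin RNA (shCTL) or a hairpin against Cmtr1 (shCM1), and total RNA was taken on day 7. Sample titles write siCTL and siCM1 for the same groups. Each group had 2 samples, 1 from each of 2 independent experiments, each hybridised in a single colour (Cy3) to an Agilent rat array; the samples numbered 1 shared slide 1 and those numbered 2 shared slide 2. A culture is a mixture of cells, and the hairpin and the virus are in the cells that were infected, with no promoter or share of infected cells given in the sources used here.

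A cell that commits to division makes D-type cyclins, which with Cdk4 or Cdk6 phosphorylate the retinoblastoma protein and release E2F transcription factors. E2F then turns on cyclin E and the genes that copy DNA, while the Cdk inhibitors of the Cip/Kip and Ink4 families hold the kinases back. Genes of G2 and mitosis are switched on later, largely through the CHR promoter element read by the MuvB complexes with B-Myb and FoxM1. Cortical neurons have left the cell cycle, and dividing cells in such cultures are mostly progenitors and glia.

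Probes and promoters are shown for members whose values follow. Each probe below is the 60-base oligonucleotide that measured the gene, written 5' to 3' in lower case, at the rn4 position the array files give. The exon or untranslated part each probe lies in was not assigned, since no annotation of that build was used here. The span of the Ccnd2 and Ccnb1 probes in the genome is longer than the probe, 6825 and 240 bases, so each crosses at least 1 intron.
Ccnd2 probe (chr4:163535032-163541856, minus strand): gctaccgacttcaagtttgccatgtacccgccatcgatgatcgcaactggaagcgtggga
Ccnb1 probe (chr2:31574809-31575048, minus strand): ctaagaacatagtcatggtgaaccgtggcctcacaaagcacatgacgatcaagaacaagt
Cdk1 probe (chr20:20043755-20043814, plus strand): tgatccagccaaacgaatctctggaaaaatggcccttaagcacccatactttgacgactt
Aurka probe (chr3:163271721-163271780, minus strand): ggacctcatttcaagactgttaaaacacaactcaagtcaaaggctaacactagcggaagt

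Promoters were taken from RefSeq for the assembly GRCr8, and 27 of the 36 members were matched by symbol; the others were Ccnd1, Ccnd2, Ccne2, Cdk6, E2f1, Mcm4, Rrm2, Ccna2 and Aurkb. Each promoter holds 250 bases before the transcription start and 50 after it, of which 270 are printed, ending 20 bases after the start. Capitals mark 3 kinds of word, searched on both strands: E2F words (TTTGGCGC, TTTCGCGC or TTTCCCGC), the CHR word (TTTGAA) and the CCAAT word (CCAAT). A word on the opposite strand appears as its reverse complement, as ATTGG does for CCAAT. The 4 mitotic promoters below are shown because their genes were lower in shCM1 and each holds a CHR word.
Cdk1 promoter (chr20:19265043-19265312, plus strand): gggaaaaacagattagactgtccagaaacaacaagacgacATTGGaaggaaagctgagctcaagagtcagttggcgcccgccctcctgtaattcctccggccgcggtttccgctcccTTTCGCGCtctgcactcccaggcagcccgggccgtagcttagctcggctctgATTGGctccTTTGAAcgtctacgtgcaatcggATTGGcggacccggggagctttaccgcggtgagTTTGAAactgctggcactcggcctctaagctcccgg
Birc5 promoter (chr10:103571896-103572165, plus strand): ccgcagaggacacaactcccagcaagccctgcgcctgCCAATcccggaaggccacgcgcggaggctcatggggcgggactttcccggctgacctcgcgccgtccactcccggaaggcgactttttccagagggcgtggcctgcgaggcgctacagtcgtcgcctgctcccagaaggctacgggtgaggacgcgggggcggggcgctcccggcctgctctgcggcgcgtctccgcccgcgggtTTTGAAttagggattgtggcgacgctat
Plk1 promoter (chr1:186147408-186147677, plus strand): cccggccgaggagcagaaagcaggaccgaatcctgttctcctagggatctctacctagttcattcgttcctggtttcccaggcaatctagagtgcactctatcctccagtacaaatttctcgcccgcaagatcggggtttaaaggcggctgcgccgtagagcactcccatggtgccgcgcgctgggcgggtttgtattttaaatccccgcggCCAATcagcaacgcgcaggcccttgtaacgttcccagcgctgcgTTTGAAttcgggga
Mki67 promoter (chr1:199952574-199952843, minus strand): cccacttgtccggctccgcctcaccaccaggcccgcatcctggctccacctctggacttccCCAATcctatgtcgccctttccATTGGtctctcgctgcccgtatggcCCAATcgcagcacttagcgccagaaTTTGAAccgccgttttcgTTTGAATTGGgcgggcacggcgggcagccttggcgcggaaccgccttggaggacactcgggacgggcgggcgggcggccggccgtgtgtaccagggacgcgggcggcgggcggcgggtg

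In Mki67 the second CHR word overlaps a CCAAT word on the opposite strand. The Cdk1 promoter holds 2 CHR words, starting 72 and 16 bases before the start, 3 CCAAT words and 1 E2F word. In Birc5 the CHR word begins 8 bases before the start, and in Plk1 it begins 7 bases into the transcript. The next 2 promoters are shown for contrast. That of Mcm5, a subunit of the replicative helicase, holds 3 E2F words, of which 2 overlap on opposite strands, and no CHR word. That of Cdkn1b, which was higher in shCM1, holds neither an E2F nor a CHR word.
Mcm5 promoter (chr19:13488563-13488832, plus strand): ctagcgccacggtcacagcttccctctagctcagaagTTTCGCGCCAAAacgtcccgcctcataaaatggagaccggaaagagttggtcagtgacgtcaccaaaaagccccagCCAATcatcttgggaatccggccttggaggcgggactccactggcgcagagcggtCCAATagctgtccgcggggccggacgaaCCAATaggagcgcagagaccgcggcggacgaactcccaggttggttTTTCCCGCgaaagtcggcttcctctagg
Cdkn1b promoter (chr4:169491254-169491523, plus strand): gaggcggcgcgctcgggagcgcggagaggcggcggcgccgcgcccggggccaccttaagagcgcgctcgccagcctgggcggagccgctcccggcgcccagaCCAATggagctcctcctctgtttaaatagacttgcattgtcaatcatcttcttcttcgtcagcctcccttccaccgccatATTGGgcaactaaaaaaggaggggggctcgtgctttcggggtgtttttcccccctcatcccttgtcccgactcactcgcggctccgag

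The CHR and E2F words were spread unevenly over the 3 roles. A CHR word stood in 8 of 11 mitotic promoters (72.7%), in 1 of 9 replication promoters (11.1%) and in 0 of 7 G1 promoters, against 18.3% of all 33469 promoters of that length. E2F words stood in 6 of 9 replication promoters (66.7%), 1 of 7 G1 promoters (14.3%) and 1 of 11 mitotic promoters (9.09%), and in 1.72% of all promoters. CCAAT words were found in 72.7% of the mitotic, 66.7% of the replication, 42.9% of the G1 and 37.5% of all promoters. The 9 members with a CHR word had a median log2 difference, shCM1 minus shCTL, of -0.38, and 9 of 9 were lower. The 18 without it had a median of -0.15, and 12 of 18 were lower. Of the 9, 8 are mitotic genes, so this split largely repeats that by role. Within the mitotic group the 3 promoters without a CHR word, those of Aurka, Ccnb1 and Bub1, belong to genes that all fell, with a median of -0.45, and the 8 with it had a median of -0.39 and were all lower. Only the exact word TTTGAA counted as CHR, and whether promoters without it hold the element in another form was not examined. These matches are descriptions of letters and were not tested against the differences.

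**Figure D1:**
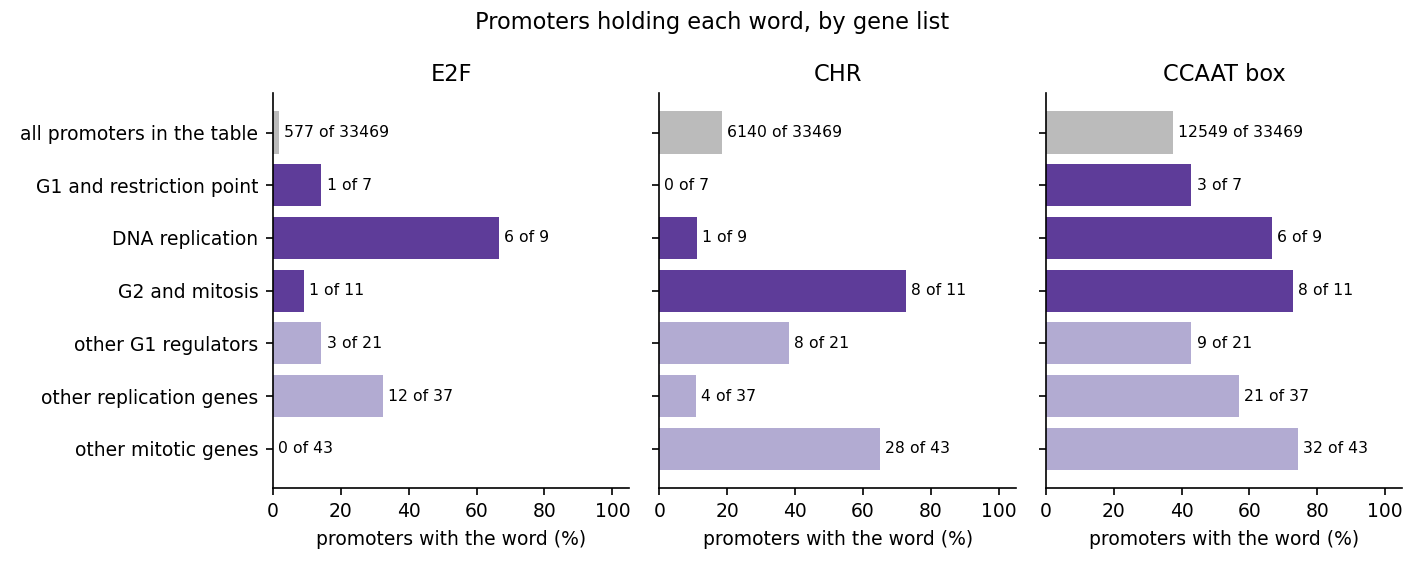
Share of 300-base RefSeq promoters that hold an E2F, a CHR or a CCAAT word on either strand, in percent, for all promoters (grey), the 3 groups of members (dark) and the 3 wider lists (light), with counts beside each bar. CHR words stand out in the mitotic lists, at 8 of 11 members and 28 of 43 other mitotic genes, and E2F words in the replication lists.

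The knockdown was checked first. On a log2 scale relative to each array's 75th percentile, used for every level below, Cmtr1 read -1.43 (replicate 1) and -1.86 (replicate 2) in shCTL, and -3.46 and -3.53, in the same order as elsewhere below, in shCM1. Both shCM1 arrays lay far below both controls. The mean fell to 27.7% of control (log2 difference -1.85, SE 0.15 with the slide as a block, limma adjusted p = 1.37e-07), and by 2.04 and 1.67 within slides 1 and 2. Of the probes for genes, 84 to 90.4% were well above background on each array, and no gene spot was saturated.

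Differences were tested over all 30359 gene names with limma, and p-values were adjusted by Benjamini-Hochberg. Without a block for the slide, limma called 0 members and 0% of all gene names, although 910 of them and 3 members had an unadjusted p under 0.05. With the slide as a block, limma called 11 members, 2 higher and 9 lower, against 6.75% of all gene names (3.7% higher and 3.05% lower). An exact permutation test of 2 arrays against 2 cannot give a two-sided p below 0.333. In 23 of 36 members shCM1 was below shCTL within both slides, compared with 22.6% of all gene names. Both shCM1 arrays lay below both shCTL arrays for 17 members (10.1% of all gene names) and above them for 2 (21.6%). The samples came from 2 experiments, and the p-values cover only these samples. With the block, the variance of each gene was mostly shared across gene names by limma (prior degrees of freedom 18.68). The blocked p-values, standard errors and intervals therefore do not measure a gene's own spread between replicates alone.

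**Figure D2:**
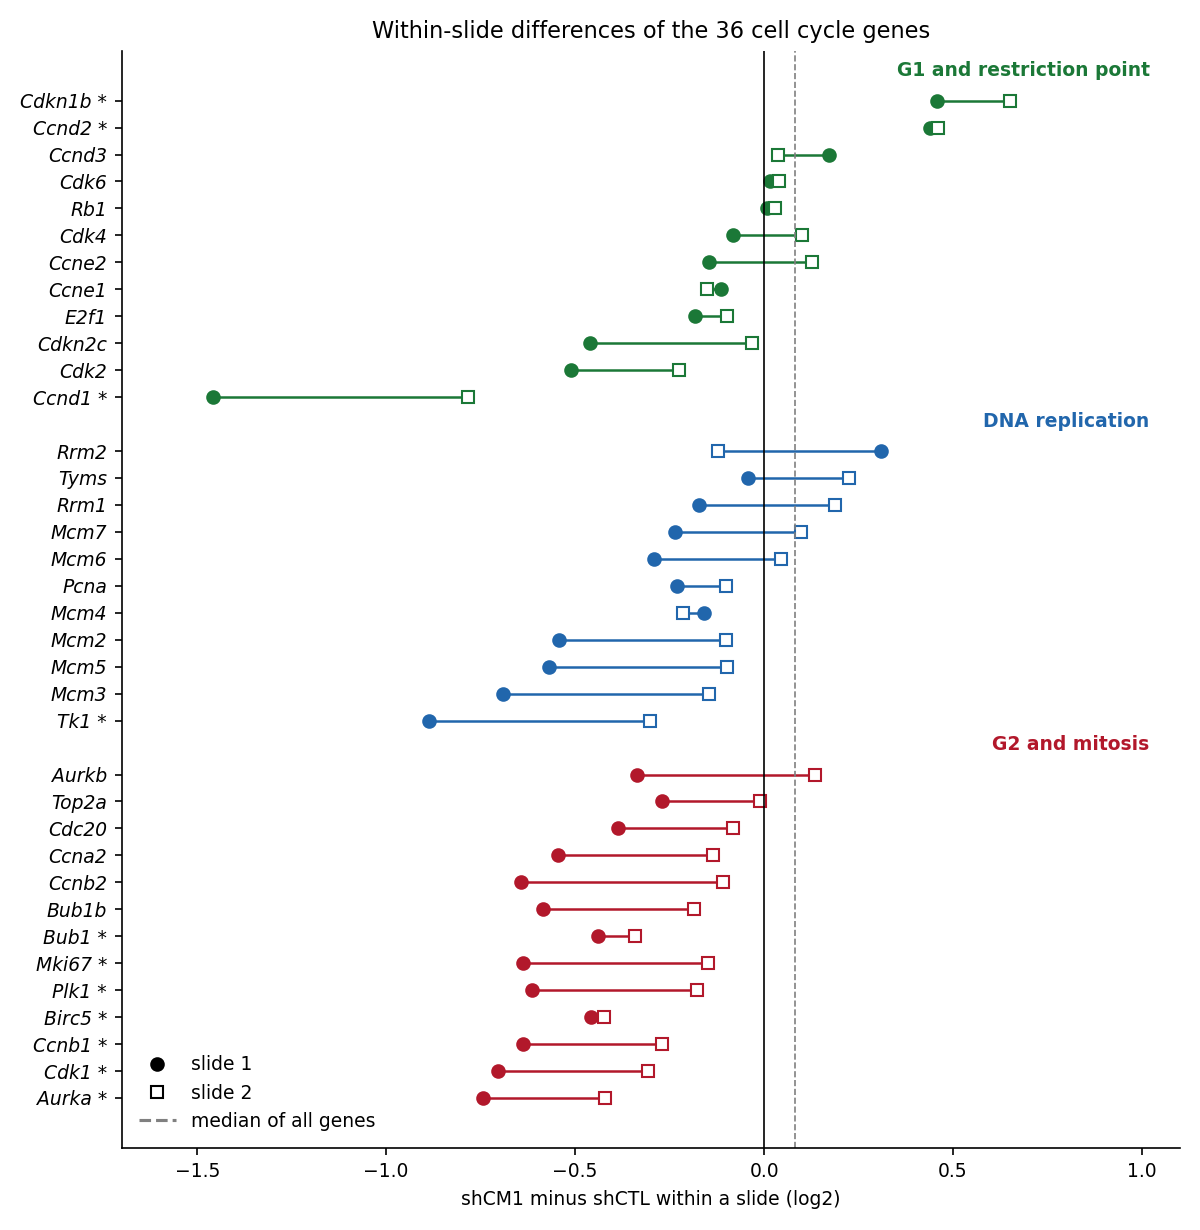
Log2 difference, shCM1 minus shCTL, within slide 1 (filled circles) and slide 2 (open squares) for each of the 36 genes, by role; stars mark genes with a limma adjusted p under 0.05 with the slide as a block, and the dashed line is the median of all genes tested (0.08). Of the 13 mitotic genes, 12 lie below 0 on both slides, and the slide 1 value is the lower in all 13.

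Among the 12 G1 genes the D-type cyclins parted. Ccnd1, which encodes cyclin D1, fell and showed the widest change of the members. It read 3.04 and 3.57 in shCTL and 1.58 and 2.78 in shCM1. Both shCM1 values were below both controls, with shCM1 replicate 1 the lowest. Its mean fell to 46% of control (log2 difference -1.12, SE 0.12 with the slide as a block, 95% interval -1.36 to -0.88, limma adjusted p = 4.31e-06). The drop was 1.46 on slide 1 and 0.78 on slide 2, so both within-slide differences lay outside this interval. Ccnd1 was the only member that moved 1.5-fold or more, in a single direction, on both slides. Of all gene names, 2.41% passed that mark. A second Ccnd1 probe gave -1.07. Without shCM1 replicate 1 the difference of the brightest probe was -0.52, and without shCM1 replicate 2 it was -1.72.

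Ccnd2, which encodes cyclin D2, rose. It read 0.61 and 0.84 in shCTL and 1.05 and 1.30 in shCM1, so that the groups did not overlap. The mean was 1.37-fold control (log2 difference 0.45, 95% interval 0.24 to 0.65, limma adjusted p = 0.00838 with the block), and the rise was 0.44 and 0.46 on the 2 slides. Ccnd3, the third D-type cyclin, differed by 0.10 (95% interval -0.12 to 0.33), and did not pass.

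Cdkn1b, which encodes the Cdk inhibitor p27Kip1, rose as well. It read 1.27 and 1.57 in shCTL and 1.73 and 2.22 in shCM1. Both shCM1 arrays were above both controls. The mean was 1.47-fold control (log2 difference 0.55, 95% interval 0.35 to 0.75, limma adjusted p = 0.00117 with the block), with 0.46 on slide 1 and 0.65 on slide 2, and a second probe gave 0.45. Without shCM1 replicate 2 its difference was 0.31. Ccnd1, Ccnd2 and Cdkn1b kept their calls with the block under all 5 scalings of the arrays.

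The kinases and the retinoblastoma gene gave small differences. Cdk2, the partner of cyclin E, read -1.41 and -0.56 in shCTL and -1.92 and -0.78 in shCM1. The groups overlapped, because both replicate 2 arrays were higher than both replicate 1 arrays, and the difference of -0.37 missed the threshold (limma adjusted p = 0.0769 with the block). For Cdk4 and Cdk6, the kinases of the D-type cyclins, the 95% intervals of the difference ran from -0.17 to 0.19 and from -0.22 to 0.27. For Rb1, which encodes the retinoblastoma protein, the interval ran from -0.19 to 0.22. The other G1 members gave -0.13 for Ccne1 and -0.01 for Ccne2, both E-type cyclins, -0.14 for the transcription factor E2f1 and -0.25 for the Ink4 inhibitor Cdkn2c. The median of the 12 was 0.00 (-0.001 before rounding), beside 0.08 over all gene names. Within both slides 5 were lower and 5 higher, beside 6859 lower and 13345 higher of all 30359 gene names.

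Of the 11 replication genes 1 fell, and the others lay between -0.42 and 0.09. That gene was Tk1, thymidine kinase. Tk1 read -1.52 and -1.51 in shCTL and -2.41 and -1.81 in shCM1. Both shCM1 arrays were below the controls, which were nearly equal, and shCM1 replicate 1 was the lowest. The mean fell to 66.3% of control (log2 difference -0.59, 95% interval -0.89 to -0.29, limma adjusted p = 0.0158 with the block), and the difference was -0.89 within slide 1 and -0.30 within slide 2. Without shCM1 replicate 1 it was -0.295 and without shCM1 replicate 2 it was -0.89. The array files place the Tk1 probe on chromosome 3 of rn4 and the Mcm3 probe on X_random, whereas RefSeq has Tk1 on chromosome 10 and Mcm3 on chromosome 9 of GRCr8; both probes carry a transcript accession that RefSeq gives the same symbol. What else these probes could bind was not tested.

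The 6 Mcm genes encode the ring of the replicative helicase, and none of them passed. Mcm3 came nearest. It read -0.21 and -0.50 in shCTL and -0.90 and -0.65 in shCM1, and the groups did not overlap. The difference was -0.42 (limma adjusted p = 0.0528 with the block), made of -0.69 on slide 1 and -0.15 on slide 2. Mcm2 read -1.39 and -1.57 in shCTL and -1.94 and -1.67 in shCM1, a difference of -0.32, again with no overlap. Mcm5 read -2.56 and -2.44 in shCTL and -3.13 and -2.54 in shCM1, a difference of -0.33, with overlap at shCTL replicate 1 and shCM1 replicate 2. For Mcm2, Mcm3 and Mcm5 the slide 1 difference lay between -0.69 and -0.54, and the slide 2 difference between -0.15 and -0.10. Mcm4, Mcm6 and Mcm7 differed by -0.19, -0.12 and -0.07.

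Of the other replication members, Pcna, the sliding clamp of DNA polymerases, differed by -0.17. The 2 subunits of ribonucleotide reductase, which makes deoxynucleotides, differed by 0.01 (Rrm1) and 0.09 (Rrm2), and Tyms, thymidylate synthase, by 0.09. The sign for Rrm2 was not shared by its probes: a second probe, also well above background on all 4 arrays, gave -0.35. Within both slides 6 of 11 were lower, beside 22.6% of all gene names. The median of the 11 was -0.17, with -0.24 on slide 1 and -0.10 on slide 2. Leaving out shCM1 replicate 1 brought this median to -0.04.

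The 13 genes of G2 and mitosis had a median of -0.39, beside 0.08 over all gene names. All 13 were lower on average, and 7 were called lower with the block, beside 3.05% of all gene names. Cdk1, the kinase that drives entry into mitosis, read 2.83 and 3.07 in shCTL and 2.12 and 2.76 in shCM1. Its shCM1 arrays were both below the controls, with replicate 2 of shCM1 close to replicate 1 of shCTL. The mean fell to 70.4% of control (log2 difference -0.51, 95% interval -0.71 to -0.30, limma adjusted p = 0.00325 with the block), by 0.71 on slide 1 and 0.31 on slide 2. Ccnb1, cyclin B1 and the partner of Cdk1, read -0.36 and -0.51 in shCTL and -1.0 and -0.78 in shCM1, with no overlap. It differed by -0.45 (adjusted p = 0.0263). A second Ccnb1 probe gave -0.19, with -0.54 on slide 1 and 0.16 on slide 2.

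The mitotic kinases Aurka and Plk1 fell. Aurka, which encodes Aurora A of the spindle poles, read -1.36 and -1.32 in shCTL and -2.11 and -1.74 in shCM1. The groups stood well apart, and the mean was 66.8% of control (log2 difference -0.58, 95% interval -0.85 to -0.31, limma adjusted p = 0.00943 with the block). Aurka was the only mitotic member called with the block under all 5 scalings. Its second probe, well above background on 2 arrays, gave 0.70, and the mean of both probes 0.06. Plk1, the Polo-like kinase, read 1.51 and 1.56 in shCTL and 0.90 and 1.38 in shCM1. The difference was -0.40 (limma adjusted p = 0.0301 with the block), made of -0.61 on slide 1 and -0.18 on slide 2. Its second probe gave -0.30, and Plk1 was called with the block under 1 of the 5 scalings. Aurkb, the Aurora kinase of the chromosomal passenger complex, differed by -0.10 and did not pass. It was lower by 0.34 on slide 1 and higher by 0.14 on slide 2, and its sign turned under background correction with normexp (0.01).

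Birc5, which encodes survivin of the same passenger complex, fell by nearly the same amount on both slides, 0.46 and 0.42. It read 0.80 and 1.30 in shCTL and 0.34 and 0.88 in shCM1, so that the groups overlapped slightly, both replicate 2 arrays being the higher of their group (log2 difference -0.44, limma adjusted p = 0.0101 with the block). Bub1, a kinase of the spindle checkpoint, read -0.35 and -0.05 in shCTL and -0.79 and -0.39 in shCM1, a difference of -0.39 (adjusted p = 0.0379) with no overlap. Mki67, the proliferation marker Ki-67, read 1.00 and 1.38 in shCTL and 0.36 and 1.23 in shCM1. Here the shCM1 value of slide 2 was above the control of slide 1, and the difference of -0.39 (adjusted p = 0.0398) was made of -0.64 on slide 1 and -0.15 on slide 2.

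The 6 mitotic members that did not pass were all lower on average. Bub1b, the checkpoint protein BubR1, differed by -0.38, Ccnb2, cyclin B2, by -0.38 and Ccna2, cyclin A2, by -0.34 (adjusted p between 0.0558 and 0.0772 by limma with the block). Cdc20, the activator of the anaphase-promoting complex, differed by -0.23 and Top2a, the topoisomerase that untangles sister chromatids, by -0.14. Of the 13, 12 were lower within both slides, beside 22.6% of all gene names, Aurkb being the exception. The median difference was -0.58 on slide 1 and -0.18 on slide 2.

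**Figure D3:**
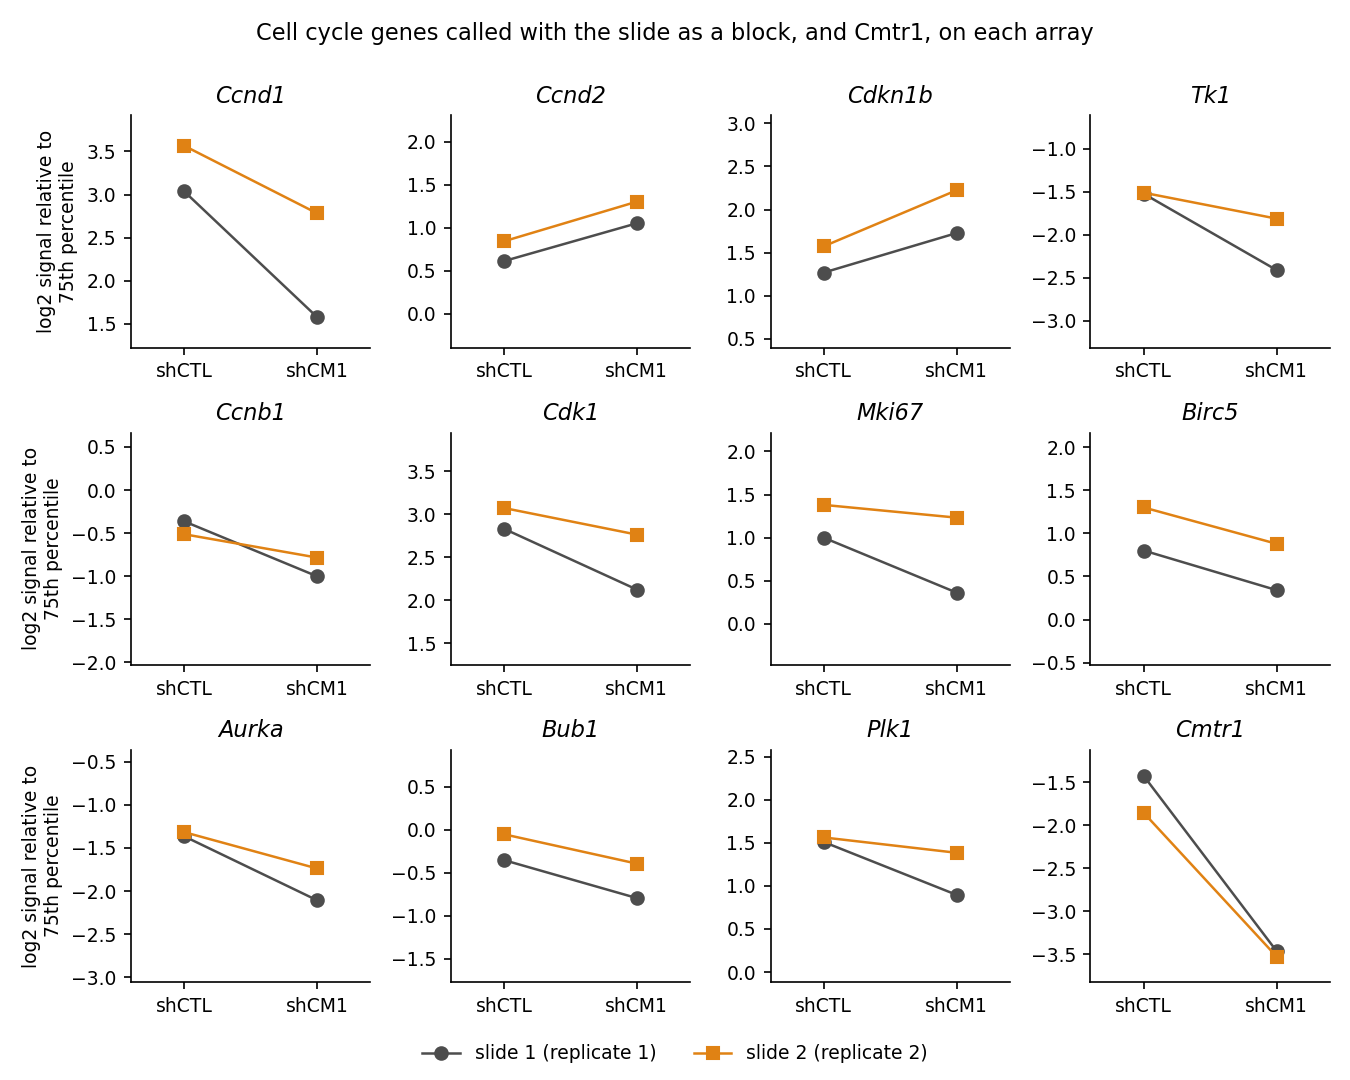
Log2 signal relative to the array's 75th percentile on each of the 4 arrays, for the 11 members called by limma with the slide as a block and for Cmtr1; a line joins the shCTL and shCM1 arrays of a slide, and every panel spans the same range. Ccnd2 and Cdkn1b rise on both slides and the other 9 members fall on both, further on slide 1.

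Leaving out 1 array also removes the pairing within its slide, so that the distance between slides enters the difference. Leaving out shCM1 replicate 1 left 10 of the 11 called members with the same direction, and made the differences of Ccnd1, Tk1, Cdk1, Mki67, Birc5, Bub1 and Plk1 smaller by more than 1.5 times. Cdk1 then differed by -0.19, Birc5 by -0.17, Bub1 by -0.19 and Plk1 by -0.15, and Mki67 turned to 0.04. Leaving out shCM1 replicate 2 made the same 7 larger by more than 1.5 times, to -0.83 for Cdk1, -0.83 for Mki67, -0.71 for Birc5, -0.59 for Bub1 and -0.64 for Plk1. Leaving out shCTL replicate 2 brought Mki67 to -0.20, Birc5 to -0.19 and Bub1 to -0.24, and leaving out shCTL replicate 1 brought Birc5 to -0.69. Ccnd2, Ccnb1 and Aurka moved by less than 1.5 times in each of these fits. The median of the mitotic members was between -0.61 (-0.615 before rounding) and -0.15 over these 4 fits.

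The calls depended further on how the arrays were scaled and on how the variance was modelled. With the block, limma called 9 members lower after scaling by the 75th percentile, 5 after quantile normalization, 6 after normexp correction, and 2 (Ccnd1 and Aurka) both after cyclic loess and in the authors' value table; Ccnd2 and Cdkn1b were called higher under each. Under the 5 scalings the median of the mitotic members lay between -0.41 and -0.37, that of the replication members between -0.17 and -0.10 (the latter after normexp), and that of all gene names between 0.01 and 0.08. Single genes moved further, Tk1 between -0.68 and -0.39 and Aurka between -0.67 and -0.42, both smallest after normexp. With the block but without a trend of the variance on intensity, limma called 0 members and 0 of all gene names, although 9 members had an unadjusted p under 0.05, and the 11 members had adjusted p-values from 0.254 to 0.337.

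**Figure D4:**
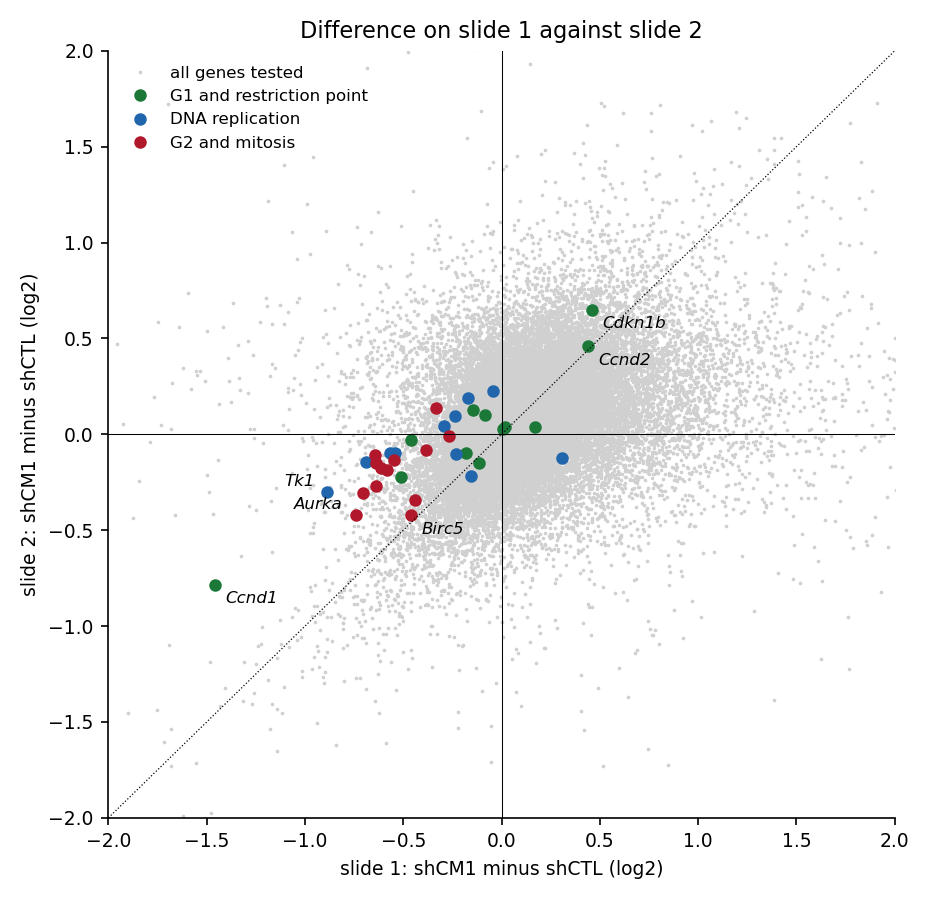
Log2 difference, shCM1 minus shCTL, on slide 1 (horizontal) against slide 2 (vertical) for all gene names tested (grey) and the members (coloured by role); the dotted line marks equal differences, and 142 gene names fall outside the axes, which end at -2 and 2. Most mitotic and Mcm genes lie left of the vertical line and close under the horizontal one, Ccnd1 lies apart at lower left, and Ccnd2 and Cdkn1b lie at upper right.

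The distance between the 2 experiments was read for the members too. In the fit with both group and slide, limma called 14 of 36 members between slide 2 and slide 1, a share close to the 32.9% of all gene names. Of the 14 members, 12 were higher on slide 2 and 2 lower, beside 4702 higher and 5277 lower over all gene names. Cdk2 was higher on slide 2 by 0.99, Ccnd1 by 0.87, Rrm2 by 0.71, Mki67 by 0.63 and Birc5 by 0.52 on the log2 scale, whereas Ccnd3 was lower there by 0.46 and Cdk4 by 0.26. For each of these named members except Ccnd1, the distance between experiments exceeded the distance between hairpins. The same held for Ccna2 and Aurkb, among others. The slide, the scan and the replicate number are the same split here and cannot be told apart.

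Wider lists of cell cycle genes gave the same order of the 3 roles. Beside the counts that follow, 3.05% of all gene names were called lower and 3.7% higher with the block, and 22.6% were lower within both slides. Of 45 other mitotic genes measured, 12 fell and 0 rose with the block (limma), the median was -0.29, and 32 were lower within both slides. They included Mybl2, which encodes B-Myb (-0.66, adjusted p = 0.001), the kinase gene Pbk (-0.72, 0.00341 for the adjusted p), Pttg1, which encodes securin (-0.53, adjusted p = 0.00263), and Ttk, the checkpoint kinase Mps1 (-0.50, adjusted p = 0.0101). Of 39 other replication genes, 4 fell and 0 rose, with a median of -0.14: Rfc2 of the clamp loader (-0.62), Gmnn, which encodes the licensing inhibitor geminin (-0.45), Cdc45 of the active helicase (-0.41) and Chaf1b of chromatin assembly factor 1 (-0.40). Of 23 other G1 regulators, 3 rose and 0 fell, with a median of 0.03. The 3 were Cdkn1a, which encodes the Cdk inhibitor p21 (0.58, limma adjusted p = 4e-04 with the block), and the cyclins Ccng1 (0.42) and Ccng2 (0.44). Each was higher on both slides, Cdkn1a by 0.50 and 0.67. Among the other scalings, Gmnn, Cdc45, Chaf1b and Ccng2 were called with the block after normexp alone. Ttk was not called after cyclic loess or in the authors' value table, and Pttg1 was not called in the latter.

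Markers of the cells a cortical culture can hold were read beside these lists. For comparison with each marker list, limma with the block called 3.7% of all gene names higher and 3.05% lower. Whether fewer cells of a kind or less RNA per cell lay behind a lower value cannot be told apart in RNA from whole cultures. The 8 neuronal markers were well above background on all 4 arrays, and their summed signal, relative to the 75th percentile, was 376 and 294 in shCTL and 359 and 273 in shCM1; 1 of 8, Tubb3, fell (-0.37). Markers of astrocytes (0 of 8 called, summed signal 118 to 128 in shCTL and 128 to 129 in shCM1) and of oligodendrocyte precursors and oligodendrocytes (7 measured, summed signal 49.6 to 57.5 in shCTL and 44.1 to 55.8 in shCM1) were present as well. Of these 7, Mbp rose by 0.52, and Cspg4, the proteoglycan NG2 of precursors, fell by 0.35. Neither was called with the block under any other scaling, and Tubb3 was not called after cyclic loess or in the authors' value table.

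Microglial and progenitor markers that passed the test were higher, where the mitotic genes that passed were lower. Of 11 microglial markers measured, 7 rose (3.7% of all gene names did) and 0 fell, with a median of 0.73. Their summed signal was 1.42 to 1.6 in shCTL and 2.46 to 2.76 in shCM1. Of the 7, Trem2 and Cx3cr1, the latter well above background on 3 arrays, were called with the block under no other scaling. Aif1 differed by 1.30, but by 0.42 after normexp. The probe for Itgam was not well above background on any array. Of 7 progenitor markers (Eomes was not analysed here), Sox2 (0.45) and Hes5 (0.85) rose, and the median was 0.32. Hes5 differed by 0.22 on slide 1 and 1.48 on slide 2, and by -0.27 without shCM1 replicate 2. It was not called with the block after quantile normalization, after cyclic loess or in the authors' value table. The summed signal of the 7 went from 36.2 in shCTL to 37.7 in shCM1 on slide 1, and from 31.4 to 44.4 on slide 2. Of 8 fibroblast and vascular markers, 3 rose (Col1a2, Dcn and Pdgfrb), and the summed signal was 1.69 to 1.95 in shCTL and 2.04 to 2.55 in shCM1. Among the other scalings, Col1a2 and Pdgfrb were called with the block after normexp alone. The part of these cells in the differences of the cell cycle genes was not tested.

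**Figure D5:**
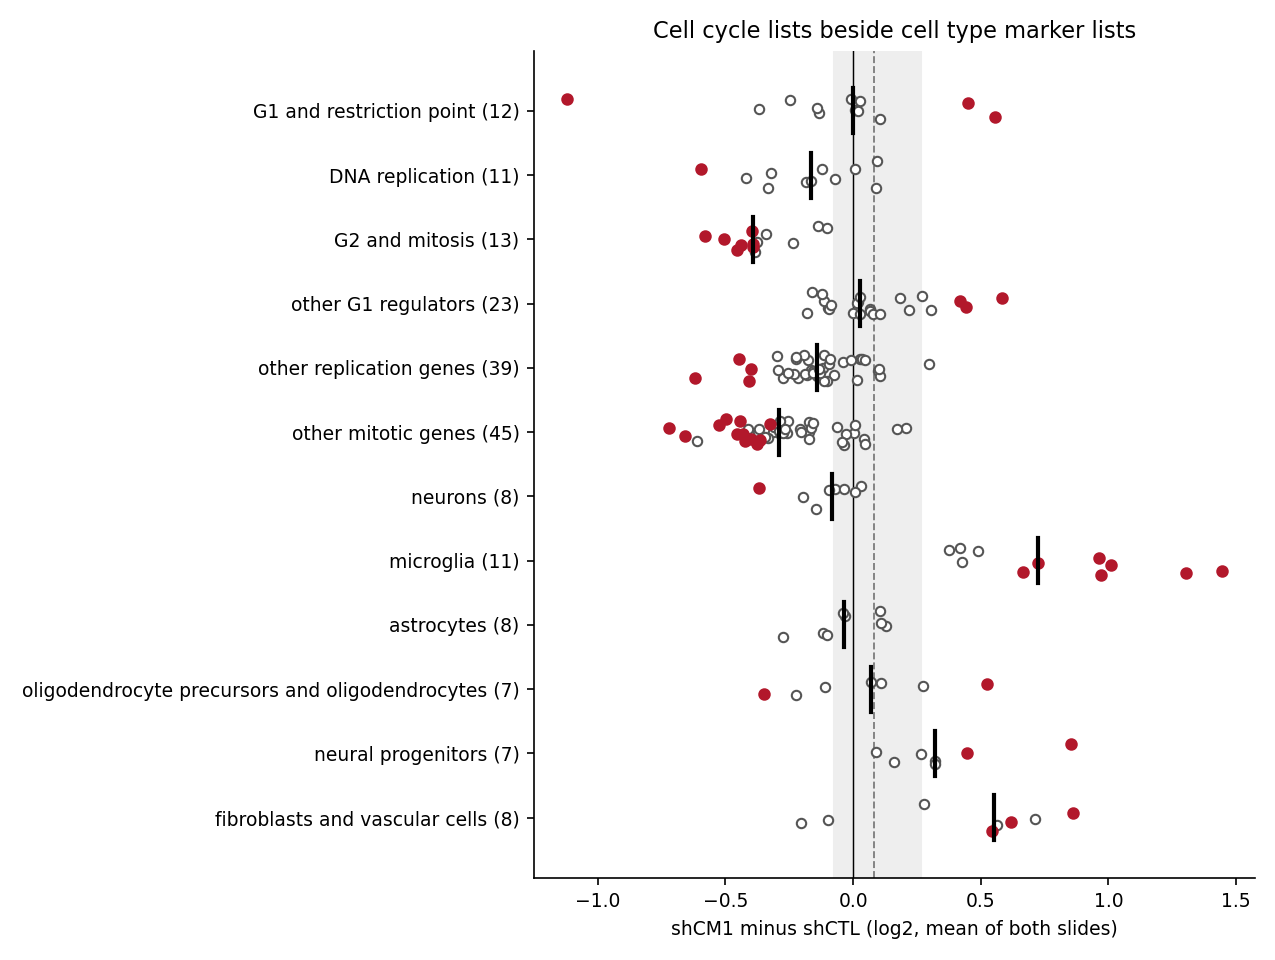
Log2 difference, shCM1 minus shCTL, averaged over both slides, for each gene of the 3 groups of members, the 3 wider lists and the 6 marker lists, with the number measured in brackets; filled points passed limma with the slide as a block, black bars are list medians, and the grey band and dashed line are the range from the lower to the upper quartile and the median of all gene names tested. The medians of the mitotic lists, -0.39 and -0.29, lie left of the dashed line, and that of the microglial list, 0.73, lies right of it. Single genes of the wider mitotic list reach 0.21.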

How the data were processed

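RNA from 4 cultures, 2 with shCTL and 2 with shCM1, was read on 1-colour Agilent arrays. The deposited scanner files hold spot intensity that, per the file headers, was extracted with Feature Extraction (Agilent, version 10.7.3.1), with background already corrected in the processed signal; other flags per spot (control type, outlier, saturation, well above background) are also as deposited by the authors. The authors' value table correlated at 0.9998 or more with these signals on the log2 scale, with column medians of 117.7 to 132; no source used here states its normalization.

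From these, outlier spots were left out (86 to 98 per array), spots of a probe were averaged, and log2 signal minus the array's 75th percentile was taken (R 4.3.3, limma 3.58.1). The percentile was 596.3 to 754.5. A gene name was tested if its brightest probe was well above background on at least 2 of 4 arrays. limma (lmFit, eBayes with an intensity trend) was run without and with the slide as a block, threshold 0.05 after Benjamini-Hochberg adjustment over all gene names, and was tested on simulated data. Replicate numbers pair the samples, since each number is 1 experiment and 1 slide: deviations of same-numbered samples correlated at 0.713. The number of arrays limits the precision. All columns of per-sample values were mapped to a sample.

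Members and lists were chosen with earlier results of these data known, so no test over a list was made. In the marker lists, 1 gene is not reported here and was left out of the sums. Values on each array are given for members called with or without the block, for those at least 1.5-fold apart in 1 direction on both slides, and for the 4 with the smallest blocked p in each role group; from the wider lists, up to 4 genes past the blocked fit are named. By accession, 34 of 36 members matched RefSeq under the same symbol. Alternatives were other scalings and filters, the mean of all probes, no intensity trend, and leaving out each array.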

Additional observations from a re-analysis of the deposited data

How the results depend on the processing

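Without a block, limma called 0 gene names and 0 members under every scaling and filter tried, and 0 to 1 gene names (the 1 without shCTL replicate 2) and 0 members with 1 array left out. With the slide as the replicate block it called 2048 gene names and 11 members. With the block, quantile normalization gave 947 gene names and 7 members, cyclic loess 741 and 4, normexp 1414 and 8, and 688 and 4 came from the values the authors deposited. The share of higher among the gene names called was over 10 percentage points lower under each of these, at 366, 274, 618 and 249 higher against 581, 467, 796 and 439 lower, than the 1123 against 925 of the 75th percentile. Alternatives added after seeing the data gave, with the block, 368 gene names and 2 members without a filter on dim probes, 2025 and 11 with probes well above background on all 4 arrays, and 1419 and 7 with the mean of all probes. With the block and no intensity trend both counts were 0. The cause of these changes was not tested. The median of the replication members lay between -0.265 and -0.039 with 1 array left out, that of the G1 members between -0.086 and -0.017, and that of the mitotic members between -0.615 and -0.154. Members called between slides were 12 to 17 under the other scalings, against 14, and 1 without the trend. No block could be fitted with a test after leaving out an array, since no residual degrees of freedom remain; the lone array of a group is then assumed to vary like the other group. The number of arrays, 2 a group, limits the precision.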
